A study of Mus musculus with 12 samples.

Results

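Of 344 female germ cell genes that could be found on the arrays, 59 were higher in E14.5 control ovaries than in testes of control fetuses and lost less than 50% of that difference in ovaries lacking both Smad4 and Stra8 (DKO ovaries). The female germ cell genes are those of a list of 360 genes that the study had drawn from earlier arrays of gonads with and without germ cells. A gene was kept when its mean log2 level in control ovaries exceeded that in control testes by at least 1, and when the mean of the DKO ovaries lay less than 50% of the way from control ovary to testis. That percentage is called the percent lost, and genes kept by the rule are called retained. It is a share of a log2 difference and not of the RNA, so a retained gene can still be several-fold lower in DKO than in control ovaries. The sex difference alone was met by 305 genes, of which 20 well-known meiosis, oocyte and BMP response genes were set aside by name (8 of them met both conditions) and 226 lost more. The 59 genes were therefore chosen on the control ovary, control testis and DKO arrays, and their values in these 3 groups are a description, with no test.

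In the fetal ovary, germ cells leave the mitotic cycle, enter meiotic prophase and switch on the transcription factors that later assemble follicles, while in the fetal testis they arrest before meiosis. Female germ cells also differ from male germ cells in their X chromosomes, since the silent X of XX germ cells is reactivated around the time they colonise the gonad. STRA8 is the retinoic acid response factor that opens the meiotic programme, and SMAD4 is the shared partner of the SMAD proteins that carry BMP signals.

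Total RNA of 12 pairs of E14.5 gonads from a mixed background was hybridised to single-colour Agilent arrays, 1 pair per array and 3 arrays per group. Tamoxifen was given to the pregnant mice at E9.5 and again at E10.5 in all groups. The testes were Smad4 flox/+ StellaMerCreMer Stra8+/-. Control ovary 1 carried the same alleles, control ovary 2 was Smad4 flox/+ Stra8+/- and control ovary 3 Smad4 flox/flox Stra8+/-, with no Cre named for control ovaries 2 and 3. Smad4 (Stella) ovaries were Smad4 flox/flox MerCreMer Stra8+/-, and DKO ovaries were Smad4 flox/flox MerCreMer Stra8-/-. Every group except the DKO was thus heterozygous for Stra8, and no ovary lacking Stra8 alone was measured. The Cre is driven by Stella regulatory sequence and is active in germ cells only, so Smad4 remained in the somatic cells of all gonads, and its efficiency in the study was variable. Because whole gonads were measured, fewer germ cells and less RNA per germ cell cannot be told apart in any of the values that follow.

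A level is the log2 processed intensity of a gene minus the 75th percentile of its array, so that 0 marks the 75th percentile and a difference of 1 is 2-fold. Levels of different genes rest on different probes and are not compared with each other. Between 58.9% and 70.7% of the probes of an array were well above background, and replicate arrays correlated at r of 0.975 to 0.994. Smad4 RNA of the whole gonad was 2.20 ± 0.19 (SD, n = 3) in control ovaries and 2.08 ± 0.12 in DKO ovaries, and the Stra8 probe still read 5.43 ± 0.17 in DKO ovaries against 6.44 ± 0.27 in controls. Of 12 germ cell genes used by both sexes, limma called 8 higher in DKO than in Smad4 (Stella) ovaries (4.42% of all genes) and 0 lower (4.03%). The median level of the 12 was 1.02 to 1.72 in the DKO arrays against 0.04 to 0.49 in the control ovaries. These genes also differed by sex. Relative to control ovaries, limma placed 7 of them higher in testes and 1 lower, where 3223 of all 18681 genes tested were higher and 3126 lower. The testis arrays had medians of the 12 from 1.25 to 1.69. Ddx4, a helicase that marks germ cells, had mean levels of 5.06 in control, 4.81 in Smad4 (Stella) and 5.20 in DKO ovaries. Sertoli cell markers had median levels of -2.57 to -2.20 in the DKO arrays against 1.12 to 1.22 in the testes, although 2 of 10 (Amh and Dmrt1) were higher in DKO than in Smad4 (Stella) ovaries. None of 8 pregranulosa markers was called between these groups. The part that these differences play in the values of the 59 genes was not tested.

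The 59 genes ranged from a control ovary minus testis difference of 1.05 (Ribc1) to 7.12 (Cdx2), with a median of 2.38. Their control ovary minus DKO difference had a median of 0.79, and the median percent lost was 33.9, with quartiles of 22.8 and 39.7. The 226 genes that lost more had a median sex difference of 2.01 and a median percent lost of 83.0. All 59 were well above background on every control ovary and Smad4 (Stella) array, 58 on every DKO array, and all 59 passed the filter on dim probes. In 56 of the 59, all 3 DKO arrays lay above all 3 testis arrays, the exceptions being Hist1h3a, Nptx2 and Pla2g2c. This separation follows in part from the rule, and its share over all genes was not counted.

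**Figure D1:**
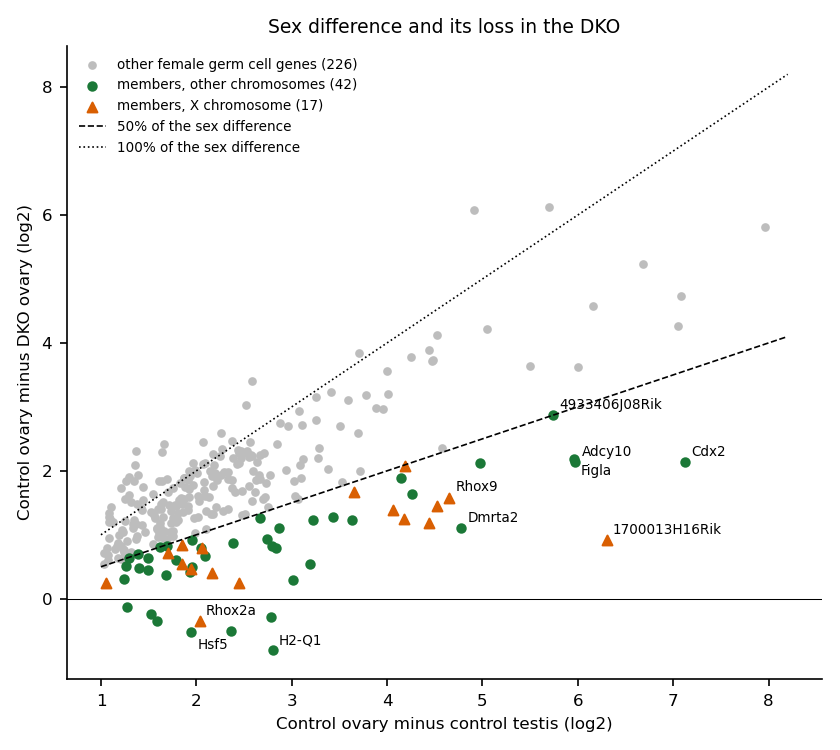
Control ovary minus control testis (x axis, log2) against control ovary minus DKO ovary (y axis, log2) for 285 female germ cell genes past the sex threshold, each point the difference of means of 3 arrays per group. Grey points are the 226 genes that lost 50% or more, green points and orange triangles the 59 kept genes on other chromosomes and on the X, which fall below the dashed line by construction. Cdx2, 1700013H16Rik, Adcy10 and Figla lie far to the right, and H2-Q1, Hsf5 and Rhox2a lie below 0, that is, higher in DKO than in control ovaries.

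The DKO mean was below the control ovary mean in 51 genes (49.6% of all genes) and above it in 8 (50.4% of all genes), and in 44 genes all DKO arrays lay below all control arrays (16.6% of all genes tested did so), in 14 the arrays overlapped, and in 1, H2-Q1, all DKO arrays lay above (16.3% of all genes). Under the thresholds used for the tests below, 33 of the 59 would be called lower in DKO than in control ovaries, where 7.94% of all genes are, and 0 higher (6.73% of all genes; at an unadjusted p under 0.05, 1 of the 59 and 17.3% of all genes), against 221 of the 226 genes that lost more, but both counts follow from the way the genes were split. The median percent lost over the 59 genes was 32.3, 35.1 and 26.0 in DKO arrays 1, 2 and 3, and 12.1, 8.82 and 15.8 in the Smad4 (Stella) arrays. The medians of all 3 DKO arrays were thus higher than that of any Smad4 (Stella) array. DKO 3, which shared a slide with the Smad4 (Stella) arrays, had the lowest of the 3. Single genes, such as Cdx2 and Adcy10, varied widely among the DKO arrays. When the rule was rerun with 1 DKO array left out, it kept 63, 65 and 57 genes, and of these 50, 48 and 47 also lost less than 50% in the array that had been left out. The percent lost in that array rests on the same control ovary and testis arrays as the rule. These counts are therefore a description and not independent of the choice. Control ovaries 2 and 3 shared a slide with DKO arrays 1 and 2. Within that slide the median DKO minus control difference of the 59 was -0.84, with 51 lower, against a median of -0.04 over all genes tested. The rule had used these arrays, and the share of all genes lower within the slide was not counted.

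**Figure D2:**
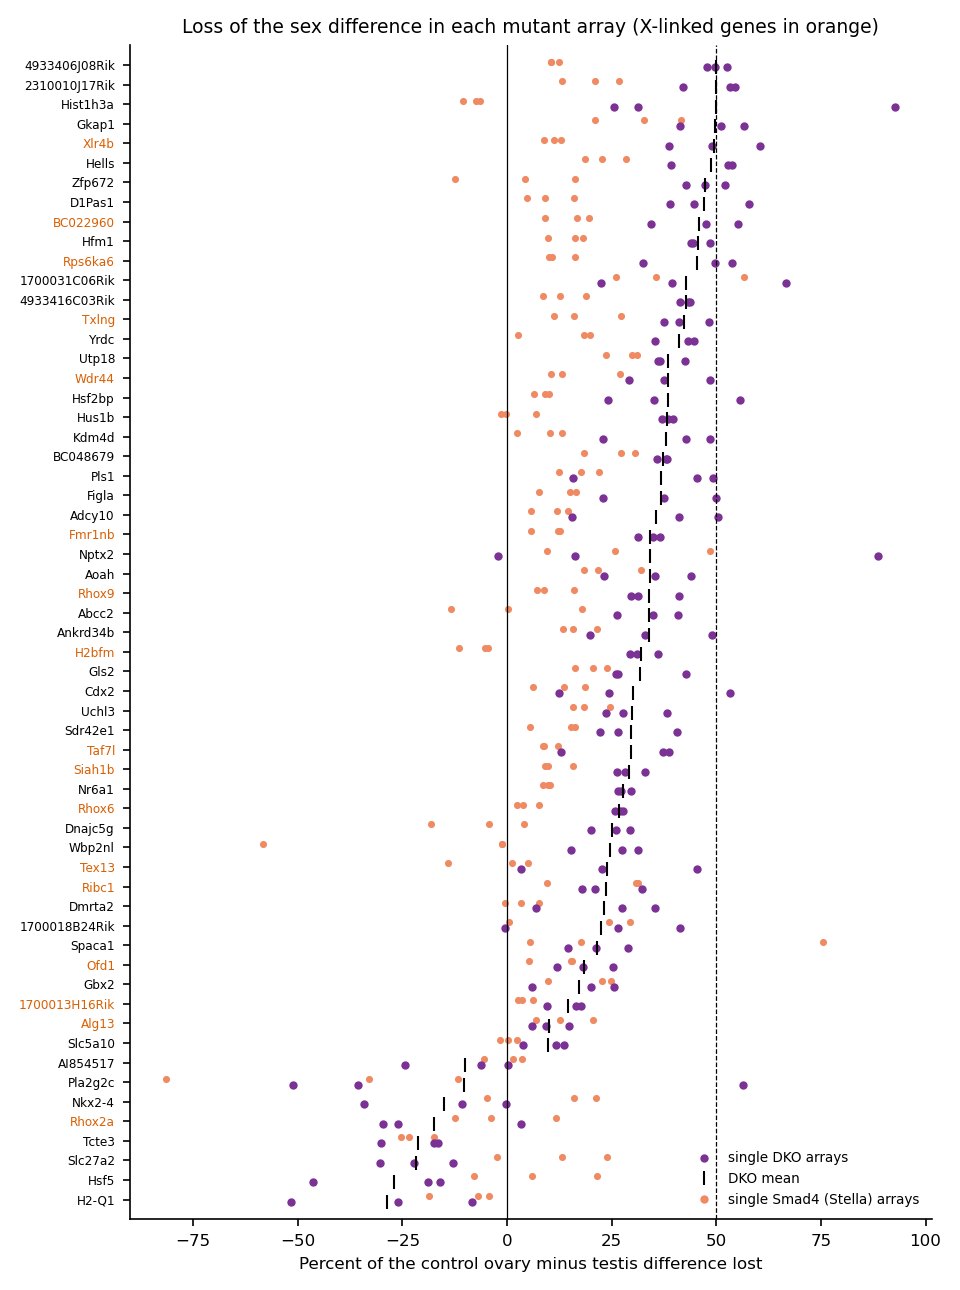
Percent of the control ovary minus testis difference lost (x axis) for each of the 59 genes (y axis, X-linked names in orange), with purple points for single DKO arrays, black bars for the DKO mean and light orange points for single Smad4 (Stella) arrays. The dashed line at 50 is the limit of the rule, and negative values are levels above the control ovary mean. Most purple points lie between 20 and 50, while Hist1h3a and Nptx2 each have 1 DKO array far to the right and the 3 DKO arrays of Pla2g2c spread to both sides of 0.

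The 50% limit ran through a continuous series of values. Just inside it were 4933406J08Rik with 49.98% lost and 2310010J17Rik with 49.98%, and Cdkn2a with 51.1% and Hccs with 51.4% lay a little outside. At the limit on the sex difference, Ribc1 at 1.05 and Wbp2nl at 1.24 were just inside, and Fra10ac1 at 0.91 and Mtg1 at 0.76 just outside. In 9 genes (4933416C03Rik, Abcc2, Adcy10, Aoah, Cdx2, Dmrta2, Gbx2, H2bfm and Hsf2bp) no testis array had the probe well above background, so that the testis level is uncertain and the percent lost can be larger than measured. The testis was therefore also set on each array to the dimmest signal counted as well above background there, or to the measured level where that was higher. The percent lost was then 57.1 for 4933416C03Rik, 55.2 for Abcc2, 53.3 for Aoah and 61.6 for Hsf2bp, and below 50 for the other 5. A probe not well above background can lie above that dimmest signal, so these values are not strict limits. The fold changes over testis given below for Cdx2, Dmrta2 and Adcy10 use the same testis setting. Of 19 genes with several probes, 10 had at least 1 probe that alone did not meet the rule.

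Of 10 developmental transcription factors in the list past the sex threshold, 6 were retained, namely Cdx2, Dmrta2, Figla, Gbx2, Nkx2-4 and Nr6a1. Figla, the basic helix-loop-helix factor required for primordial follicles and zona pellucida genes, was measured at 1.96, 2.24 and 2.38 in the controls, 1.21, 1.73 and 1.30 in Smad4 (Stella), -0.04, -0.78 and 0.83 in DKO ovaries and -3.98, -3.55 and -3.78 in testes. The 4 groups did not overlap, and the DKO ovaries, though lowest of the ovaries and widely spread, stayed more than 2 log2 units above the highest testis in all 3 arrays. Figla had lost 36.7% of its log2 sex difference, and its DKO mean was 2.19 log2 units below the control ovary mean.

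Cdx2, a caudal homeobox factor of trophectoderm and gut, had the widest sex difference of the 59 and also the widest spread between replicates. Its levels were 0.58, -2.11 and -0.72 in the controls, -1.20, -1.72 and -2.08 in Smad4 (Stella) and -2.49, -4.54 and -1.63 in DKO ovaries, against -8.03, -7.54 and -8.05 in testes, where it was not well above background. The 3 ovary groups overlapped, and control ovaries were 33.8-fold above testes with the testis set as described above. Dmrta2, a zinc finger factor of the doublesex family known from forebrain patterning, was -2.05, -2.40 and -2.56 in control and -4.02, -3.65 and -2.66 in DKO ovaries. All DKO arrays lay below the controls for Dmrta2, but DKO 3 came close to control ovary 3 and lay among the Smad4 (Stella) arrays (-2.71, -2.32 and -2.50). Control ovaries were 11.2-fold above testes for Dmrta2 with the same testis setting.

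Nr6a1, the orphan nuclear receptor GCNF that represses pluripotency genes, was 0.49, -0.03 and -0.23 in control ovaries and -0.76, -0.67 and -0.69 in DKO ovaries, against -2.93, -2.96 and -2.37 in testes. Its DKO arrays were tightly grouped below every control. Gbx2, a homeobox factor of the midbrain-hindbrain boundary, was at -2.73 ± 0.71 in control, -3.34 ± 0.26 in Smad4 (Stella) and -3.27 ± 0.32 in DKO ovaries (SD, n = 3), with overlapping arrays. Nkx2-4, an NK2 family homeobox factor, was -2.37 ± 0.15 in control and -2.14 ± 0.26 in DKO ovaries, and only 1 of its 2 probes differed between the sexes.

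**Figure D3:**
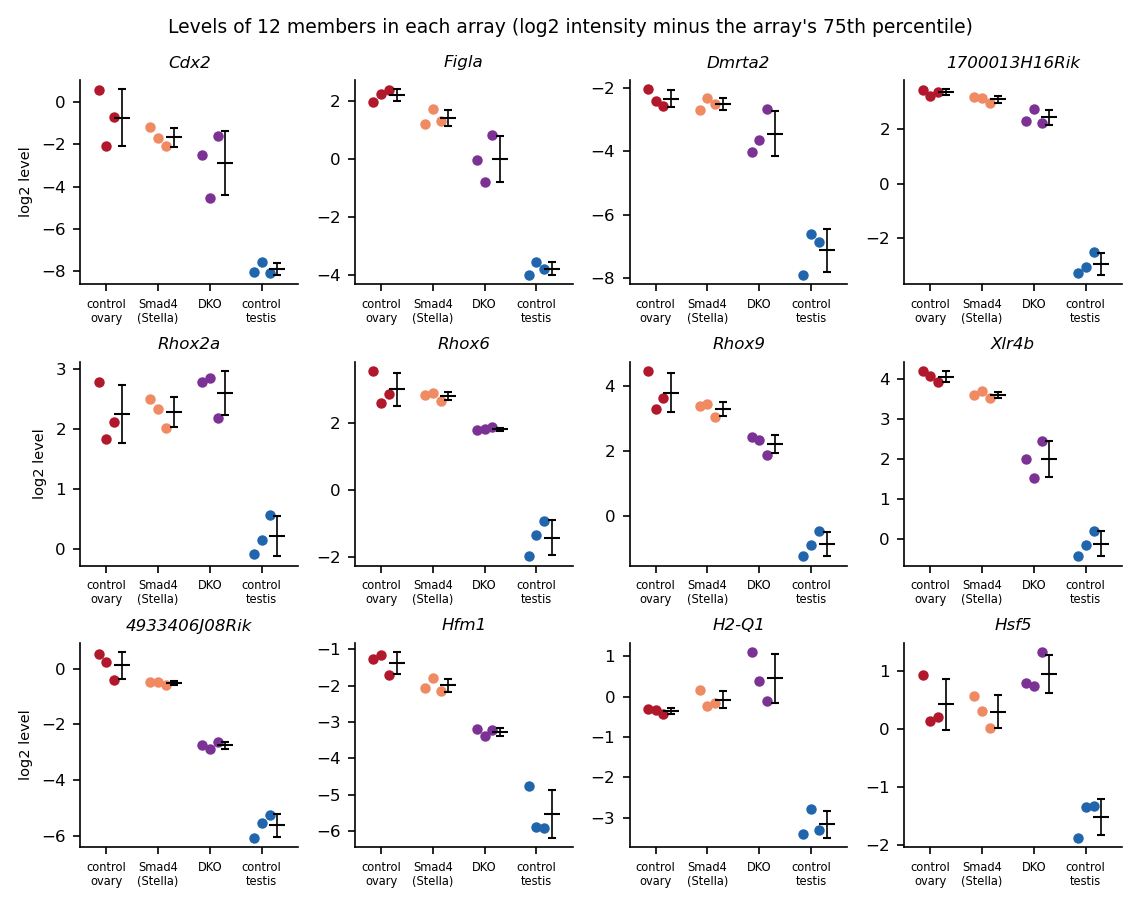
Level of 12 retained genes (y axes, log2 intensity minus the 75th percentile of the array, each panel with its own range) in each of the 3 arrays of the 4 groups, with black bars for the mean and SD. Testis arrays are lowest in every panel. Rhox2a, H2-Q1 and Hsf5 are as high or higher in DKO as in control ovaries, while 4933406J08Rik, Xlr4b and Hfm1 lie midway between control ovaries and testes.

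Of the 59 genes, 17 (28.8%) lay on the X chromosome, against 18 of 224 placed genes (8.04%) that lost more. The share was 40 of 342 (11.7%) in the whole list on the arrays and 1093 of 28558 (3.83%) over all genes on the arrays. Read the other way, 17 of 35 X-linked genes past the sex threshold were retained (48.6%), against 42 of 250 on other chromosomes or with no position (16.8%), and the median percent lost was 51.0 on the X and 78.5 elsewhere. These shares are a description of the list. Position was not a condition of the rule, but the rule compared XX ovaries with XY testes, so position is not independent of the values used. The part of X chromosome number in these shares was not tested. Of 673 X-linked genes tested outside the list, 142 were lower and 92 higher in testes than in control ovaries by limma. Of 17812 genes tested on other chromosomes, 2921 were lower and 3120 higher. The median testis minus control ovary difference was -0.09 over the 673 genes and 0.02 over the 17812. The 5 genes Kdm6a, Kdm5c, Ddx3x, Eif2s3x and Xist, which are transcribed from or escape the inactive X, had a median of -0.65 in testes and 0.23 in DKO ovaries relative to control ovaries, with 0 of 5 called between DKO and control ovaries. The X share was 14 of 40 genes kept when the background was corrected by normexp and 21 of 80 when arrays were not scaled, and 15 to 19 X-linked genes were kept when any 1 array was left out.

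**Figure D4:**
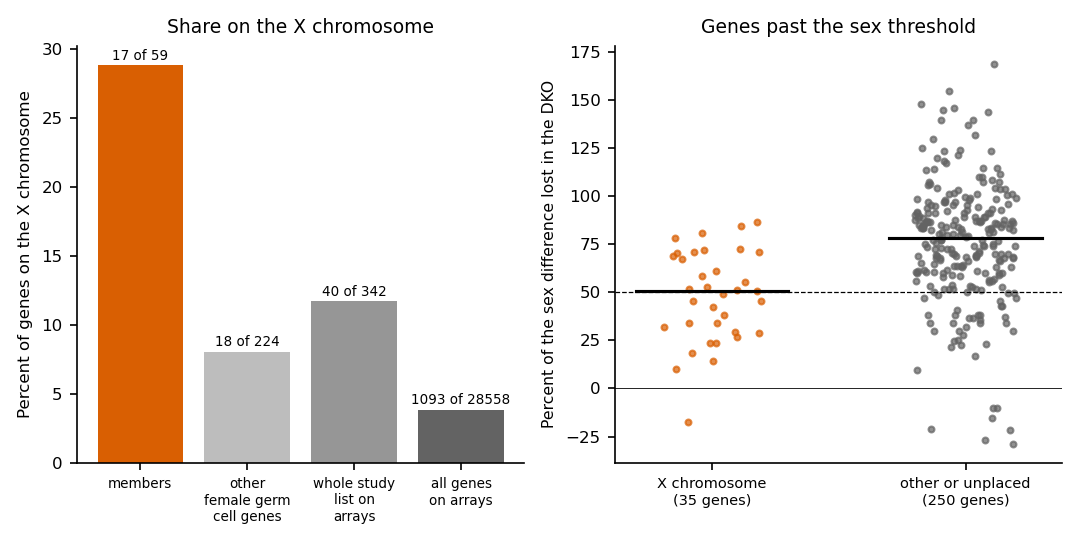
Left, percent of genes on the X chromosome (y axis, from 0) among the 59 retained genes, the female germ cell genes that lost more, the whole list on the arrays and all genes on the arrays, with counts above the bars. Right, percent of the sex difference lost in DKO ovaries (y axis) for each gene past the sex threshold on the X and on other chromosomes or with no position, with black lines at the medians of 51.0 and 78.5 and a dashed line at 50.

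The Rhox genes, a cluster of reproductive homeobox genes on the X, and the Xlr genes, an X-linked family first found in lymphocytes, made up 4 of the 17, with 4 of 6 family members past the sex threshold retained. Both families hold close copies, so the array readout depends on the 60-base probe, and the probes of the Rhox genes are shown for that reason. In mm9 they lie at chrX:34785561-34785620 (plus strand, Rhox2a), chrX:35182945-35183004 (plus strand, Rhox6) and chrX:35254147-35254206 (minus strand, Rhox9).
Rhox2a: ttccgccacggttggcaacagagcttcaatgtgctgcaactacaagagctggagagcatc
Rhox6: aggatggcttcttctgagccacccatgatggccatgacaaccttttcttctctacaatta
Rhox9: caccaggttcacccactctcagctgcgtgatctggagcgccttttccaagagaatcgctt

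The best ungapped alignment between any pair of these probes matched 23 of 60 bases (Rhox2a and Rhox9), so no pair of them were near copies, but other copies of Rhox2 were not compared with the probe and may share the Rhox2a signal. Rhox2a was 2.78, 1.84 and 2.12 in the controls, 2.50, 2.33 and 2.01 in Smad4 (Stella), 2.78, 2.85 and 2.18 in DKO ovaries and -0.09, 0.16 and 0.57 in testes. The 3 ovary groups overlapped and none of them came near the testes. Rhox6 was 3.57, 2.60 and 2.87 in control, 2.84, 2.91 and 2.67 in Smad4 (Stella) and 1.78, 1.81 and 1.87 in DKO ovaries, against -1.99, -1.36 and -0.94 in testes. Rhox9 was 4.46, 3.30 and 3.62 in control, 3.38, 3.46 and 3.05 in Smad4 (Stella) and 2.42, 2.34 and 1.89 in DKO ovaries, against -1.23, -0.88 and -0.47 in testes. For Rhox6 and Rhox9 the DKO arrays lay below all other ovaries and well above the testes, and control ovary 1 was the highest array of all, as it also was for Cdx2 and Gbx2.

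Xlr4b had 3 probes, which are shown because they disagreed in how much was lost. They align to chrX:70467277-70467454 (probe 1), chrX:70467736-70467792 (probe 2) and chrX:70465363-70467216 (probe 3), all on the plus strand of mm9, and the spans of probes 1 and 3 are longer than their 60 bases.
Xlr4b probe 1: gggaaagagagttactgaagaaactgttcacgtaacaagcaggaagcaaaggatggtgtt
Xlr4b probe 2: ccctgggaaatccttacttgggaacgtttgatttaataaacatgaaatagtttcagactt
Xlr4b probe 3: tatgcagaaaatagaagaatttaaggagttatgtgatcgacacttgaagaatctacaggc

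By these probes the control ovary minus testis difference was 4.78, 2.83 and 4.95 and the control ovary minus DKO difference 2.47, 1.12 and 2.62, so that probe 2 alone met the rule and probes 1 and 3 lay just beyond the limit. Their mean placed Xlr4b at 4.20, 4.07 and 3.91 in control, 3.59, 3.69 and 3.52 in Smad4 (Stella) and 1.99 ± 0.46 (SD, n = 3) in DKO ovaries, against -0.43, -0.15 and 0.20 in testes. Close copies of Xlr4b may contribute to any of the 3.

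The other 13 X-linked genes ranged from 10.1% lost (Alg13, a subunit of the enzyme that starts N-linked glycan assembly) to 45.8% (BC022960). The uncharacterised gene 1700013H16Rik had the second widest sex difference of the 59. It was 3.46, 3.24 and 3.38 in the controls, 3.20, 3.14 and 2.97 in Smad4 (Stella), 2.32, 2.76 and 2.25 in DKO ovaries and -3.27, -3.07 and -2.49 in testes, so that its DKO arrays lay below every other ovary and at least 4 log2 units above every testis. Taf7l, the germ cell paralogue of a TFIID subunit, was 3.55, 3.46 and 3.36 in control and 1.84, 1.90 and 2.92 in DKO ovaries, with DKO 3 apart from the other two, against -0.88, -0.81 and -0.48 in testes. Alg13 was 1.19, 1.22 and 1.26 in control, 0.92, 1.06 and 0.73 in Smad4 (Stella) and 1.08, 0.99 and 0.86 in DKO ovaries, and both mutants overlapped. These levels average probes that disagreed, with 24.8%, 18.1% and -22.7% lost by single probes. The median percent lost was 29.6 over the 17 X-linked genes and 34.0 over the 42 others. In all 17 X-linked genes the DKO arrays lay above all testis arrays, which again follows in part from the rule.

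Of 17 listed meiosis genes past the sex threshold and outside the names set aside, 3 were retained (Hfm1, Hsf2bp and Taf7l). Of 23 listed replication, cell cycle and chromatin genes 5 were (H2bfm, Hells, Hist1h3a, Hus1b and Kdm4d), and losses ran from 29.6% for Taf7l to 49.9% for Hist1h3a. The first count is thus not a share of all meiosis genes. Hfm1, the helicase of meiotic crossover formation, was -1.27, -1.15 and -1.72 in control, -2.05, -1.79 and -2.13 in Smad4 (Stella) and -3.20, -3.39 and -3.23 in DKO ovaries, against -4.77, -5.89 and -5.92 in testes, where 1 of 3 arrays was well above background. The retained gene 4933406J08Rik, counted in neither of these lists, is Terb2 in RefSeq, which tethers meiotic telomeres to the nuclear envelope. It was 0.52, 0.22 and -0.41 in control, -0.49, -0.49 and -0.61 in Smad4 (Stella) and -2.74, -2.90 and -2.64 in DKO ovaries, against -6.08, -5.56 and -5.25 in testes. In both genes the DKO arrays formed a tight step between the other ovaries and the testes. Hsf2bp, which binds BRCA2 in meiotic recombination, lost 38.3% as measured and H2bfm, an X-linked histone H2B family gene, 32.1%. Kdm4d, a histone demethylase, lost 38.1%, Hus1b, a paralogue of a checkpoint clamp subunit, 38.3%, and Hells, a chromatin remodeller needed for DNA methylation, 48.6%. Hist1h3a, one of many near-identical histone H3 genes whose signal this probe may share, had DKO 1 at -2.81, which lay within the range of the testes.

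The 8 genes whose DKO mean was above the control ovary mean were H2-Q1, Hsf5, Slc27a2, Tcte3, Rhox2a, Nkx2-4, Pla2g2c and AI854517. H2-Q1, a class I histocompatibility gene of the Q region with close relatives, was -0.30, -0.34 and -0.43 in the controls, 0.17, -0.23 and -0.16 in Smad4 (Stella) and 1.09, 0.38 and -0.12 in DKO ovaries, against -3.40, -2.77 and -3.30 in testes. All mutant arrays lay above all control ovaries, and H2-Q1 was the single retained gene among 10 histocompatibility genes of the list. Hsf5, a heat shock factor family member, was 0.93, 0.13 and 0.21 in control and 0.80, 0.74 and 1.33 in DKO ovaries, against -1.89, -1.35 and -1.33 in testes. Tcte3, a dynein light chain of cilia and sperm tails, was -2.05, -2.14 and -1.08 in control and -1.04, -1.37 and -1.34 in DKO ovaries, against -4.39, -3.82 and -4.14 in testes. In Hsf5 and Tcte3 the spread of the control ovaries covered most of the DKO values. Slc27a2, a fatty acid transporter and very long chain acyl-CoA synthetase, was -1.13 ± 0.26 in control and -0.84 ± 0.24 in DKO ovaries by the 1 of its 3 probes that was above background. Pla2g2c, a secreted phospholipase, varied most, with DKO 3 at -1.72 and testis 3 at -1.33, and was the 1 gene of the 59 not called lower in testes (16.7% of all genes were), with overlapping arrays.

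Promoters from RefSeq (GRCm38.p6, 250 bases before to 50 after the start) were matched for 45 of the 59 genes, 53 promoters in all. The E-box CACGTG was found on either strand in 13.2% of them against 7.15% of all 32851 promoters, and TTCCCGC, the core of an E2F site, in 11.3% against 4.60%. In promoters of the genes that lost more, the shares were 7.17% and 14.3%. The 3 promoters with a motif among the genes with the widest sex difference or the smallest loss are printed with the motif in capitals, at chr11:87616914-87617213 (Hsf5, plus strand), chr17:15041510-15041809 (Tcte3, minus strand) and chr4:138725075-138725374 (Pla2g2c, plus strand). The motif of Hsf5 reads on the opposite strand.
Hsf5: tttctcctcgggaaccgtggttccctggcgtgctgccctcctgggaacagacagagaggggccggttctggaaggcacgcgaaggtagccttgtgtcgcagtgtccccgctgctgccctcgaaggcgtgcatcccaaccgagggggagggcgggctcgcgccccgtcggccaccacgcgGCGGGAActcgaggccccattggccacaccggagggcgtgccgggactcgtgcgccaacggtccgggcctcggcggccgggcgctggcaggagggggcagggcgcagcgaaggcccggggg
Tcte3: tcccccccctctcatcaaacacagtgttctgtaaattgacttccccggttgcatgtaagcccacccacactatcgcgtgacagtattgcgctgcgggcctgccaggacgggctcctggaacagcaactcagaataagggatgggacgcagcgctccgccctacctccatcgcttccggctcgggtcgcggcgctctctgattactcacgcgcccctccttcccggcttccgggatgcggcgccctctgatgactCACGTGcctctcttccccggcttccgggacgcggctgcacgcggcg
Pla2g2c: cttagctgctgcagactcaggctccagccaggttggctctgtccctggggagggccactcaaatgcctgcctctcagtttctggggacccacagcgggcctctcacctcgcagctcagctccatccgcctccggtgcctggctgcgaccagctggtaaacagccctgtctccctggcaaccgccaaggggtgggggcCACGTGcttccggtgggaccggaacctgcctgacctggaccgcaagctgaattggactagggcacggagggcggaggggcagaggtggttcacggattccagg

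A motif match is a description of the letters in the window and says nothing about binding.

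Of 26 mitochondrial and metabolic genes past the sex threshold 2 were retained, Slc27a2 and Gls2, a glutaminase, at 0.04 ± 0.19 in control and -0.63 ± 0.20 in DKO ovaries with 31.8% lost. Adcy10, the soluble adenylyl cyclase of sperm, was -1.17, -0.58 and -0.47 in control and -1.67, -3.75 and -3.19 in DKO ovaries. Its control ovaries were 33.0-fold above testes, with the testis set as for the other genes near background there. Slc5a10, a sugar transporter, was among the steadiest, at -0.36, -0.33 and -0.44 in control and -0.49, -0.79 and -0.73 in DKO ovaries. Ofd1, a centriole protein encoded on the X, was 4.94, 4.70 and 4.84 in control and 4.57, 4.28 and 4.43 in DKO ovaries, against 2.71, 2.55 and 2.73 in testes. Both mutants of Ofd1 overlapped, at 4.50, 4.71 and 4.49 in Smad4 (Stella) ovaries. The genes not described singly were Spaca1, 1700018B24Rik, Ribc1, Tex13, Wbp2nl, Dnajc5g, Siah1b, Sdr42e1, Uchl3, Ankrd34b, Abcc2, Aoah, Nptx2, Pls1, BC048679, Wdr44, Yrdc, 1700031C06Rik and 2310010J17Rik, with losses from 21.6% (Spaca1, a membrane protein of the sperm acrosome) to 49.98%.

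Whether the 59 genes changed on loss of Smad4 alone was examined on Smad4 (Stella) arrays that the rule had not used. The control ovaries of this comparison are those of the rule, so its calls and p-values are not independent of the choice. The condition on the sex difference favours high control levels and that on the percent lost favours low ones. Their net effect on this comparison was not tested. By limma over 18681 genes, with a gene called at an adjusted p under 0.05 and at least 1.5-fold, 0 of 59 were lower in Smad4 (Stella) than in control ovaries (0.139% of all genes were) and 0 were higher (0.134% of all genes). At an unadjusted p under 0.05, 16 were lower (11.3% of all genes) and 0 higher (8.37%). The means of 49 of the 59 were lower, against 53.4% of all genes, with a median difference of -0.29 against -0.02 over all genes tested and -0.46 over the 226 genes that lost more, of which 1 was called lower. In 25 genes all Smad4 (Stella) arrays lay below all controls (15.6% of all genes) and in 2 above (12.6%).

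The lowest adjusted p values were those of 4933416C03Rik, Taf7l2 in RefSeq, and Gkap1, an anchoring protein of cyclic GMP-dependent kinase. Taf7l2 was -2.22, -2.01 and -2.06 in the controls and -2.73, -2.52 and -3.03 after loss of Smad4, 1.59-fold lower without overlap (adjusted p = 0.0693), and it was called under quantile normalization (adjusted p = 0.0479). Gkap1 was 3.15 ± 0.05 in control and 2.74 ± 0.13 in Smad4 (Stella) ovaries (SD, n = 3), 1.33-fold lower by limma (adjusted p = 0.0837), and Figla 1.72-fold lower (adjusted p = 0.234). Without control ovary 1, Utp18, a ribosome biogenesis factor, was the 1 gene called (adjusted p = 0.0460). The methods' t-test without adjustment called 5 of 59 lower at 1.5-fold or more (2.74% of all genes), among them Figla and Hfm1, and 0 after Benjamini-Hochberg adjustment. No slide held both of these groups, and with slide as a block 0 were called.

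The further loss of Stra8 was examined by comparing DKO with Smad4 (Stella) ovaries. The rule kept genes whose level stayed high in these same DKO arrays, so the calls, p-values and intervals of the 59 genes are not independent of it, and the choice favours higher DKO values. By limma 17 of 59 were lower in the DKO (4.03% of all genes were) and 0 higher (4.42% of all genes). Of the 226 genes that lost more, 196 were lower, a count that follows in part from their having been split off for low DKO levels. At an unadjusted p under 0.05, 34 were lower (12.2% of all genes) and 2 higher (14.2%), and the means of 49 were lower (48.2% of all genes) and of 10 higher (51.8%). In 36 genes all DKO arrays lay below all Smad4 (Stella) arrays (14.3% of all genes) and in 1 above (16.9%), and the median difference was -0.51 against 0.01 over all genes tested. By the methods' t-test without adjustment, 21 were lower at 1.5-fold or more (4.55% of all genes). Of the X-linked genes 8 of 17 were called lower, and of the others 9 of 42, which was not tested as a difference.

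The genes called lower were 4933406J08Rik, 4933416C03Rik, Xlr4b, Zfp672, D1Pas1, BC022960, Txlng, Fmr1nb, Kdm4d, Hus1b, H2bfm and Hfm1 in order of their adjusted p, followed by Rps6ka6, Figla, Rhox9, Rhox6 and Hsf2bp. Terb2 (4933406J08Rik) was 4.69-fold lower (adjusted p = 0.000414) and H2bfm 3.42-fold lower (adjusted p = 0.0125). Xlr4b was 3.05-fold lower (adjusted p = 0.00147), Taf7l2 2.76-fold (adjusted p = 0.000135) and Figla 2.65-fold (adjusted p = 0.0212). Rhox9 was 2.12-fold and Rhox6 1.98-fold lower, both near the threshold (adjusted p = 0.0392 and 0.0432), and Rhox2a was 1.25-fold higher with a 95% interval of the log2 difference from -0.29 to 0.93 (adjusted p = 0.512). Zfp672, a zinc finger gene, was 1.30, 2.06 and 1.62 in Smad4 (Stella) and 0.34, 0.59 and 0.47 in DKO ovaries, 2.29-fold lower (adjusted p = 0.00159), where the controls were at 1.65, 1.77 and 1.76. These levels average probes that disagreed. The percent lost of Zfp672 was 20.4 by its dimmer probe in control ovaries and 80.0 by the brighter, which did not meet the rule by itself. The probes of Txlng disagreed too. Its percent lost was 52.8 by the brightest, which did not meet the rule by itself, and -10.0 by the next. The DKO minus Smad4 (Stella) difference of Txlng was -1.47 by the brightest probe and -0.67 by the mean of the probes kept. Another 4 genes passed the adjusted p but not the fold threshold: Hells, Wdr44, Yrdc and 2310010J17Rik. Of the genes above controls, Hsf5 differed by 0.65 with an interval of 0.08 to 1.23 (adjusted p = 0.136) and H2-Q1 by 0.53 with an interval of -0.08 to 1.13 (adjusted p = 0.254), neither of them called.

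**Figure D5:**
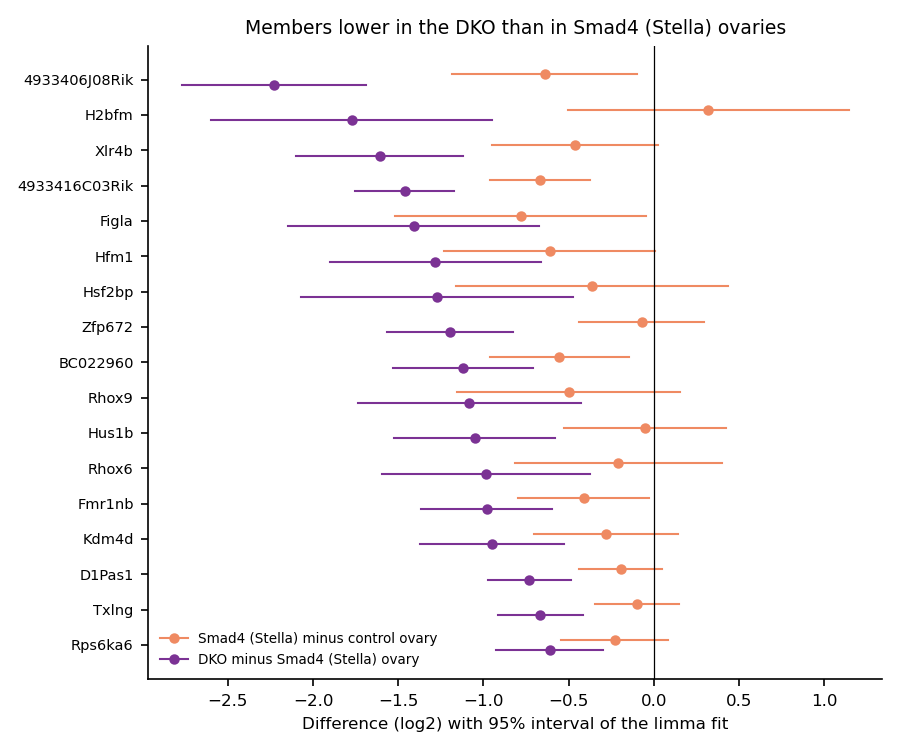
Log2 difference with its 95% interval from the limma fit (x axis) for the 17 genes called lower in DKO than in Smad4 (Stella) ovaries (y axis), n = 3 arrays per group. Purple points are DKO minus Smad4 (Stella) and light orange points Smad4 (Stella) minus control ovary. All purple intervals lie below 0, from 4933406J08Rik at -2.23 to Rps6ka6 at -0.61, while most light orange intervals include 0 and none was called.

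D1Pas1, an intronless autosomal relative of the X-linked helicase Ddx3x, is among the least certain of the 17. Its 2 probes lie at chr1:188793228-188793287 and chr1:188794262-188794321 (mm9, plus strand) and are shown because they moved in opposite directions.
D1Pas1 probe 1: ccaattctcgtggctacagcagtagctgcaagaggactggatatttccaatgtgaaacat
D1Pas1 probe 2: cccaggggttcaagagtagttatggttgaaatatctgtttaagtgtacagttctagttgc

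The control ovary minus testis difference was 0.53 by probe 1 and 3.39 by probe 2, and the control ovary minus DKO difference was -0.64 and 2.48. The mean of both was -0.69, -0.77 and -0.91 in Smad4 (Stella) and -1.73, -1.47 and -1.36 in DKO ovaries, 1.66-fold lower (limma, adjusted p = 0.00238). Neither probe met the rule by itself, and by the probe that is brightest over the arrays D1Pas1 was higher in DKO than in Smad4 (Stella) ovaries by 0.41 on the log2 scale, without a call.

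All 3 Smad4 (Stella) arrays were on 1 slide with DKO 3, while DKO 1 and 2 were on another. Within that slide, all 17 genes were lower in the DKO array than in the mean of the Smad4 (Stella) arrays, 13 of them by at least 1.5-fold. The 17 had been called on these same arrays among others, so both counts follow in part from that choice. Over the 59 genes, 48 were lower within the slide, with a median of -0.36 against 0.04 over all genes tested. The share of all genes lower within this slide was not counted. With slide as a block, 6 of the 17 and no other gene remained called: 4933406J08Rik, 4933416C03Rik, Xlr4b, Zfp672, Fmr1nb (a neighbour of the Fmr1 gene) and Rhox9. The difference of Figla was then -0.58 (adjusted p = 0.345), and it was also not called without Smad4 (Stella) array 2 or 3 or without DKO 1. Rhox6 and Rhox9 lost their call when any 1 of the 6 Smad4 (Stella) and DKO arrays was left out, Hsf2bp when any of them but DKO 3 was, and Rps6ka6 without Smad4 (Stella) 2 or 3 or DKO 1 or 2. Hfm1, Hus1b and Kdm4d lost theirs without Smad4 (Stella) array 2, and with that array left out 9 genes were called. By its brightest probe Xlr4b was not called (adjusted p = 0.0532). P-values here measure the spread between pairs of gonads, with 3 arrays per group.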

How the data were processed

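Total RNA of 12 gonad pairs was measured on Agilent single-colour arrays. Per the file headers, the authors deposited Feature Extraction 11.0.1.1 output, whose processed signal is a background-corrected intensity, with flags for spots well above background, annotated on mm9. The authors' deposited value table holds the same intensity, rounded and neither scaled nor logged. For the rule, log2 processed signal minus the 75th percentile of each array was averaged over all spots and probes of a gene. For all other levels and tests, outlier spots were left out and probes were kept when 1 group or more had them well above background on all its arrays (27311 of 41174 probes), which altered the control ovary level of 4 of the 59 genes by 0.01 or more. Of the 360 listed genes, 338 matched by array name, 6 by accession and 16 not at all. Current symbols came from RefSeq for 55 of the 59.

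Groups were compared with limma 3.58.1 (R 4.3.3, with the data.table package, 1.17.8) in 1 model of 12 arrays with Benjamini-Hochberg adjustment over 18681 genes. Tested on simulated data with 200 changed genes among 18649, the fit recovered 67% of 2-fold and 92% of 4-fold changes for Smad4 (Stella) against control ovaries, and 65% and 90% for DKO against Smad4 (Stella). There were 7 false calls in each comparison. In the data, 26 genes were called lower and 25 higher in the first comparison, and 752 and 826 in the second. Recovery in the data may therefore differ from that in the simulation. Exact permutation of 3 arrays against 3 cannot go below p = 0.1 and was not used. Alternatives were quantile normalization, normexp with an offset of 50, the unscaled table, no probe filter, the brightest probe, slide and replicate blocks, fits of the compared groups only, a 2-fold threshold, Student's test of the methods and leaving out each array. The number of arrays limits the precision, and 0 spots were saturated. Figures were drawn with Python 3.11.15 and matplotlib 3.10.9.

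The 59 genes, the gene lists and the rule for named genes were chosen with earlier results of these data known. Named were the 10 genes with the widest sex difference, the 10 with the smallest loss, up to 12 called genes by adjusted p, genes at the thresholds, members of described lists, and Figla, Smad4 and Stra8. Gkap1, Utp18, Ofd1 and the genes named beside the 1.5-fold threshold were chosen after their values were seen. Promoter windows came from a RefSeq table, a whole genome was not used here, and 1 gene just outside the 50% limit is not reported here.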

Additional observations from a re-analysis of the deposited data

How the results depend on the processing

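The count of genes kept by the rule ranged from 40 (normexp, 38 of them shared with the 59) to 80 (unscaled table, 58 shared) and from 55 to 65 when 1 array was left out, and that of X-linked genes from 14 to 21, with 15 to 19 when 1 array was left out. The count of genes lower in Smad4 (Stella) than in control ovaries was 0, and became 1 under quantile normalization and 5 by the methods' t-test without adjustment, with a range of 0 to 1 when 1 array was left out (1 without control ovary 1). The count of genes higher was 0 in both comparisons under every alternative run and when any 1 array was left out. The count of genes lower in DKO than in Smad4 (Stella) ovaries was 17 and fell to 11 in the unscaled table, 6 with slide as a block, 11 at a 2-fold threshold and 4 by the methods' t-test with adjustment (4933406J08Rik, H2bfm, Hus1b and Rhox6). It ranged from 9 (without Smad4 (Stella) array 2) to 18 when 1 array was left out. The methods' t-test without adjustment gave 21.

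The median difference of the 59 genes, -0.29 for Smad4 (Stella) minus control ovaries, was 0.13 in the unscaled table, where the median of all genes tested was itself 0.40, so that the 59 remained below it, and -0.35 to -0.22 when 1 array was left out. For DKO minus Smad4 (Stella) the median of -0.51 became -0.37 with normexp and -0.76 in the unscaled table, where the median of all genes was -0.23, and -0.54 to -0.44 when 1 array was left out. D1Pas1 reversed to 0.41 with its brightest probe. Replicate numbers did not pair the samples (r of deviations -0.18 to 0.15 between same-numbered arrays, 2 of 18 pairs over 0.1), and with the replicate block 14 of the 17 genes were called, and 0 in the comparison of Smad4 (Stella) with control ovaries. The cause of these shifts was not tested. Levels near background, as in testes for 9 genes, leave the percent lost uncertain.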
